A study of Arabidopsis thaliana with 4 samples.

Results

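Expansins, xyloglucan endotransglucosylase/hydrolases (XTHs) and cellulose synthase-like (CSL) proteins build and loosen the primary cell wall, and their transcripts were followed here in above-ground tissue of Arabidopsis thaliana. The members were all probe sets annotated to a single gene whose symbol contained EXPA, EXPB, EXLA or EXLB or began with XTH, CESA or CSL. This gave 34 genes with 1 probe set each, out of 22746 probe sets on the Affymetrix arrays after control probe sets were left out. They comprised 10 alpha-expansins (EXPA), 4 beta-expansins (EXPB), 3 expansin-like A genes (EXLA), 1 expansin-like B gene (EXLB), 9 XTH genes and 7 CSL genes. Genes of these families without such a listed probe set were not members, so the results cover only part of each family. No listed single-gene probe set carried a CESA symbol, so the CESA genes, which encode the catalytic subunits of cellulose synthase itself, were not analysed here and the cellulose synthase family is represented by its CSL branches alone.

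The 4 arrays stood for an fnr1 mutant in Wassilewskija (Ws), wild type Ws, an fnr1 mutant in Columbia and wild type Columbia, with 1 array for each. FNR1 encodes a leaf ferredoxin-NADP+ oxidoreductase, which hands photosynthetic electrons to NADP+, and Ws and Columbia are natural accessions (ecotypes). All plants were 31 days old, were grown on soil at 21 °C with 8 h of light and 16 h of dark, and were sampled 4 h after lights on. The labels name neither the mutant alleles nor the number of plants behind an array, and the mutant state was taken from the labels because FNR1 itself was not analysed here.

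The plant cell wall is a network of cellulose microfibrils held in a matrix of xyloglucan and other hemicelluloses and of pectin. Expansins loosen the bonds between wall polymers at acid pH, and XTHs cut and rejoin xyloglucan chains, so that the wall can yield to turgor while a cell grows. CSL enzymes make hemicellulose backbones, with CSLC proteins making the glucan chain of xyloglucan and CSLA proteins making mannans. In a rosette these genes are known for their part in leaf and petiole expansion, while some members, such as EXPA7 and EXPA18, are known mainly from root hairs.

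The deposited signals were not at a common level, with array medians between 22.1 in wild type Columbia and 28.9 in wild type Ws, and each array was therefore scaled to a common median of 26.5. Signals below are these median-scaled values, and differences are fitted on log2(signal + 5.78), which understates the change of dim probe sets. The 7 leaf photosynthesis genes with a probe set, such as LHCB4.2 and PSAN, summed to 27166 in fnr1 Ws and 28868 in wild type Ws, against 31730 in fnr1 Columbia and 33064 in wild type Columbia. Of these 7, LHCB4.2 and LHCB4.3 were called lower in Ws. LHCB4.2 made up most of the gap between the sums, with 2822 in fnr1 Ws and 3022 in wild type Ws, against 6051.5 in fnr1 Columbia and 6478 in wild type Columbia. The other listed photosynthesis genes were not called, with log2 differences from -0.15 (PSAE-1) to 0.05 (PSBY). The part of the lower sum in the results below was not tested. Of the stem and fibre wall list, IRX10 and IRX15 were listed, with a sum of 37.7 in fnr1 Ws and 43.9 in wild type Ws, against 42.3 in fnr1 Columbia and 45.1 in wild type Columbia. The only listed gene of the root list, PYK10, lay between 71.2 and 132.5, and none of the flower genes searched had a listed probe set. In whole tissue of this kind, fewer cells of a type and less RNA per cell cannot be told apart. Signals of different probe sets were not compared with each other as transcript levels.

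The first comparison asked which of these genes differed between Ws and Columbia over both genotypes. The alpha-expansin EXPA8 was higher in Ws, and the xyloglucan synthase gene CSLC04, the beta-expansin EXPB3 and the expansin-like gene EXLB1 were lower in Ws. Each of these differences was at least 1.5-fold the same way in fnr1 and in wild type plants, as were 2.15% of all tested probe sets upward and 4.26% downward. Of the 17 members bright enough to be tested, limma called 1 higher and 3 lower in Ws at an adjusted p under 0.05. Over all 13648 tested probe sets, 3.07% were called higher and 5.25% lower in Ws. The members called were thus 23.5% of those tested, against 8.32% of all tested probe sets called in either direction. This comparison was made on 17 genes and without a test of the share. The families were chosen with earlier results of these data known and with EXPA8 as an example, so no excess is read from it. At an unadjusted p under 0.05 there were 7 members, where 20.2% of all tested probe sets passed. Within the fnr1 plants alone, 1 member was at least 1.5-fold higher and 3 lower in Ws (6.66% and 8.18% of all tested probe sets), and within the wild type plants 2 were higher and 5 lower (7.76% and 8.13%).

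EXPA8 is an alpha-expansin, a class that loosens walls of growing tissue. Its signal was 943 in fnr1 Ws and 934 in wild type Ws, against 549 in fnr1 Columbia and 489 in wild type Columbia. Both Ws arrays lay above both Columbia arrays, and the arrays of an ecotype lay close together. The fitted log2 difference was 0.85 ± 0.14 (SE, 2 arrays against 2, limma adjusted p = 0.00075), which is 1.80-fold higher in Ws, with a 95% interval of 0.549 to 1.153. The difference was 0.77 between the fnr1 plants and 0.93 between the wild type plants.

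The other tested alpha-expansins fell on both sides of zero. EXPA4 had a signal of 122.9 in fnr1 Ws and 118.6 in wild type Ws, against 84.1 in fnr1 Columbia and 88.1 in wild type Columbia. EXPA15 had 71.2 in fnr1 Ws and 72.7 in wild type Ws, against 48.3 in fnr1 Columbia and 46.1 in wild type Columbia. For both genes the Ws arrays lay above the Columbia arrays, as they did for EXPA8, but neither was called. The log2 difference was 0.55 ± 0.19 for EXPA15 (limma adjusted p = 0.0942) and 0.46 ± 0.17 for EXPA4 (limma adjusted p = 0.127), and the unadjusted 95% intervals of both excluded 0.

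EXPA9 and EXPA16 had lower signals on the Ws arrays. EXPA9 had 22.1 in fnr1 Ws and 14.2 in wild type Ws, against 27.3 in fnr1 Columbia and 25.7 in wild type Columbia (log2 difference -0.45 ± 0.26, limma adjusted p = 0.359). EXPA16 had 21.4 in fnr1 Ws and 26.5 in wild type Ws, against 27.2 in fnr1 Columbia and 31.2 in wild type Columbia (log2 difference -0.24 ± 0.24, limma adjusted p = 0.649). Their Ws and Columbia arrays did not overlap either, but neither was called. Not overlapping is common in this comparison: 27.1% of all tested probe sets had both Ws arrays above both Columbia arrays and 21.2% had them below. Among the 17 members, 6 had Ws above, 9 had Ws below and 2 overlapped.

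**Figure D1:**
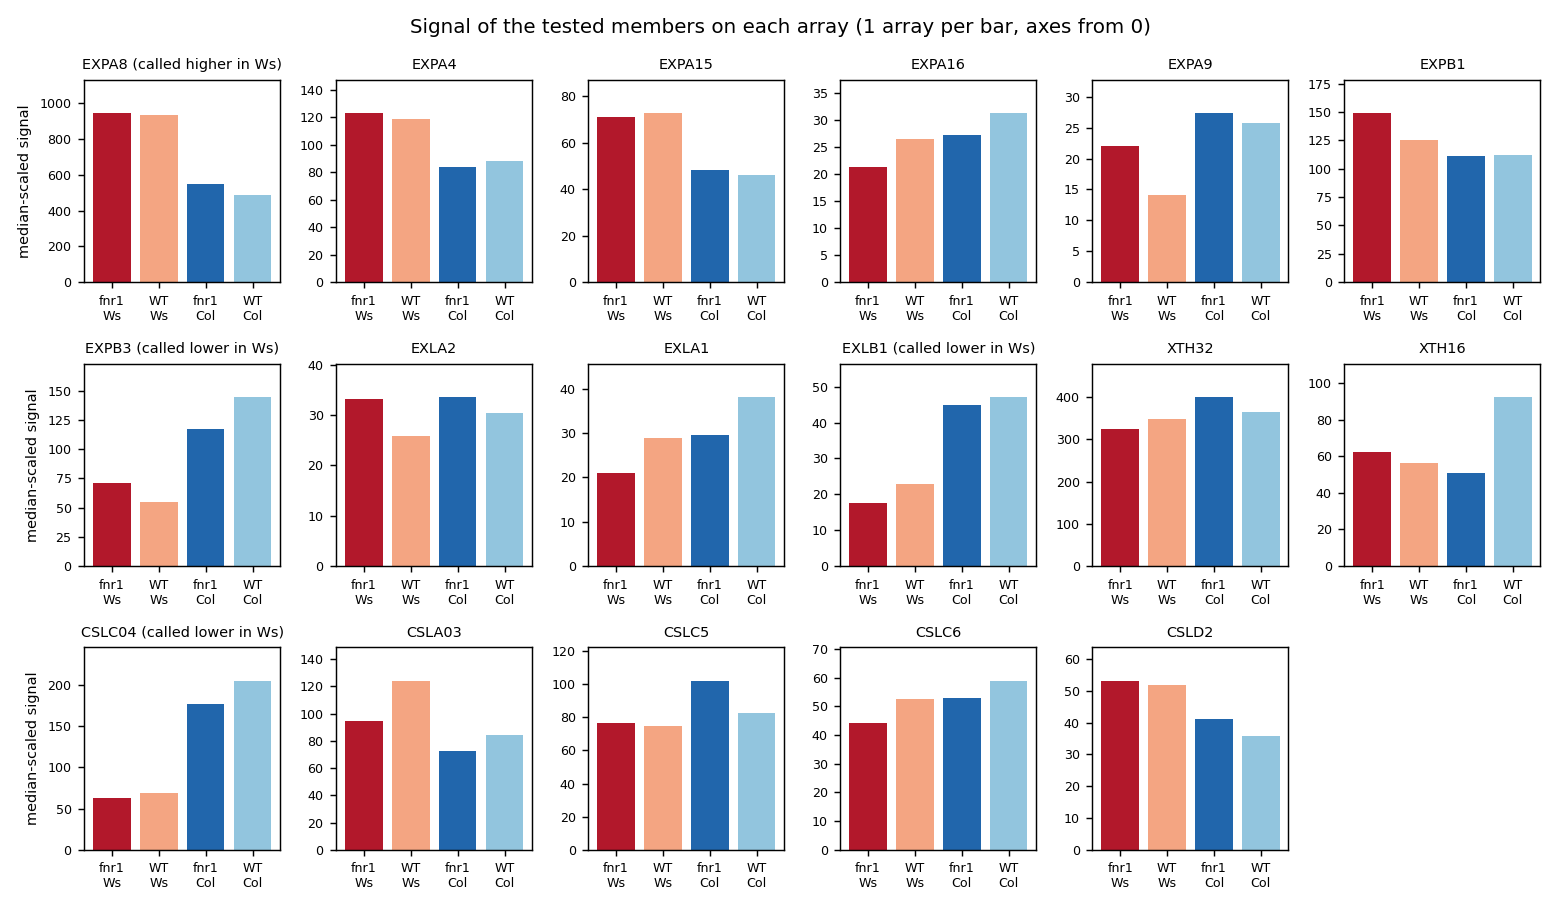
Median-scaled signal of the 17 tested members (vertical axes from 0, 1 axis per gene) on the fnr1 Ws, wild type Ws, fnr1 Columbia and wild type Columbia arrays, with 1 bar per array. EXPA8 stands at 943 and 934 on the Ws arrays against 549 and 489 on the Columbia arrays, while CSLC04, EXPB3 and EXLB1 are lower on both Ws arrays.

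Beta-expansins are the class that includes grass pollen allergens, and EXPB3 and EXPB1 were the tested members. EXPB3 had a signal of 71.1 in fnr1 Ws and 54.9 in wild type Ws, against 117.6 in fnr1 Columbia and 144.4 in wild type Columbia. All Ws values lay below all Columbia values, and the pair of wild type arrays was farther apart than the fnr1 pair. EXPB3 fell by 0.995 ± 0.19 on the log2 scale (SE, 2 arrays against 2, limma adjusted p = 0.00268), or 1.99-fold, with -0.68 between the fnr1 plants and -1.31 between the wild type plants. The call was lost on the deposited scale (log2 difference -0.82, limma adjusted p = 0.169), with no filter on dim probe sets (limma adjusted p = 0.0766) and without wild type Ws (-0.82, limma adjusted p = 0.0684).

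EXPB1 was not called. It had 148.7 in fnr1 Ws and 125.1 in wild type Ws, against 110.9 in fnr1 Columbia and 112.2 in wild type Columbia, a log2 difference of 0.28 ± 0.17 (limma adjusted p = 0.407). The sizes of the EXPB3 and EXPB1 differences were not tested against each other.

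Expansin-like proteins share the domains of expansins, but wall-loosening activity has not been shown for them. EXLB1 had a signal of 17.4 in fnr1 Ws and 22.8 in wild type Ws, against 45.0 in fnr1 Columbia and 47.1 in wild type Columbia. Its Ws arrays were thus well below its Columbia arrays. EXLB1 fell by 1.01 ± 0.23 on the log2 scale (SE, 2 arrays against 2, limma adjusted p = 0.00917), or 2.01-fold, with -1.13 between the fnr1 plants and -0.89 between the wild type plants. This call too was lost on the deposited scale (-0.85, limma adjusted p = 0.125), with no filter (limma adjusted p = 0.138) and without fnr1 Ws (-0.86, limma adjusted p = 0.104), and with the filter at the 60th percentile EXLB1 was too dim to be tested.

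EXLA1 and EXLA2 were not called. EXLA1 had 20.9 in fnr1 Ws and 29.0 in wild type Ws, against 29.5 in fnr1 Columbia and 38.0 in wild type Columbia (log2 difference -0.37 ± 0.23, limma adjusted p = 0.416). EXLA2 overlapped between the ecotypes, with 33.2 in fnr1 Ws and 25.9 in wild type Ws, against 33.5 in fnr1 Columbia and 30.3 in wild type Columbia. Its log2 difference was -0.10 ± 0.23 (limma adjusted p = 0.869).

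Of the 9 XTH members, only XTH16 and XTH32 were bright enough to be tested, and neither was called between the ecotypes. XTH32, of the XTH subgroup that includes xyloglucan hydrolases, had a signal of 326 in fnr1 Ws and 347 in wild type Ws, against 400.1 in fnr1 Columbia and 365 in wild type Columbia. Its log2 difference was -0.18 ± 0.15 (limma adjusted p = 0.569), with a 95% interval from -0.50 to 0.14. XTH16 had 62.5 in fnr1 Ws and 56.5 in wild type Ws, against 50.8 in fnr1 Columbia and 92.2 in wild type Columbia. The wild type Columbia array stood above the other 3 for XTH16. Its fitted log2 difference of -0.19 ± 0.22 (limma adjusted p = 0.697) joins 0.27 between the fnr1 plants and -0.66 between the wild type plants.

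CSLC04, also written CSLC4, encodes a synthase of the xyloglucan glucan chain, the polymer that XTHs cut and rejoin. Its signal was 62.6 in fnr1 Ws and 68.9 in wild type Ws, against 176.3 in fnr1 Columbia and 204.4 in wild type Columbia. The Ws arrays were far below the Columbia arrays in both genotypes. CSLC04 fell by 1.45 ± 0.17 on the log2 scale (SE, 2 arrays against 2, limma adjusted p = 1.81e-05), or 2.74-fold, the largest fitted ecotype difference among the 17 tested members. The difference was -1.41 between the fnr1 plants and -1.49 between the wild type plants. CSLC04 and EXPA8 were called under all 9 alternative settings and with each of the 4 arrays left out, where an ecotype is left with a single array whose spread is taken to be that of the others.

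The other tested CSLC members, CSLC5 and CSLC6, which encode related glucan synthases, were lower on both Ws arrays by less. CSLC5 had 76.5 in fnr1 Ws and 74.7 in wild type Ws, against 101.8 in fnr1 Columbia and 82.3 in wild type Columbia (log2 difference -0.26 ± 0.18, limma adjusted p = 0.475). CSLC6 had 44.3 in fnr1 Ws and 52.6 in wild type Ws, against 53.0 in fnr1 Columbia and 58.8 in wild type Columbia (log2 difference -0.19 ± 0.20, limma adjusted p = 0.664). Neither was called, and their differences were not tested against that of CSLC04. CSLC12, too dim to be tested, overlapped between the ecotypes. ATCSLC08, a CSLC gene outside the members, was higher on both Ws arrays but not called (log2 difference 0.30, limma adjusted p = 0.468).

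CSLA03 and CSLD2 had higher signals on the Ws arrays. CSLA03, of the mannan synthase branch, had 94.8 in fnr1 Ws and 123.8 in wild type Ws, against 72.3 in fnr1 Columbia and 84.4 in wild type Columbia. CSLD2, of a branch known from root hair growth, had 53.1 in fnr1 Ws and 51.9 in wild type Ws, against 41.0 in fnr1 Columbia and 35.8 in wild type Columbia. The log2 difference was 0.44 ± 0.18 for CSLA03 (limma adjusted p = 0.154) and 0.40 ± 0.20 for CSLD2 (limma adjusted p = 0.291), and neither was called. The unadjusted 95% interval excluded 0 for CSLA03 (0.07 to 0.82) but not for CSLD2 (-0.03 to 0.83).

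Taken by family, the fitted ecotype differences of the tested members ranged from -0.45 to 0.85 for the 5 alpha-expansins, from -0.995 to 0.28 for the 2 beta-expansins, from -0.37 to -0.10 for the 2 EXLA genes and from -1.45 to 0.44 for the 5 CSL genes. The median was -0.19 over the 17 members, against 0.04 over all tested probe sets. The median absolute difference was 0.40 over the members, against 0.20 over all tested probe sets. For the 13 members not called, the adjusted p ran from 0.0942 to 0.869. Their 95% intervals together reached from -1.002 to 0.957, so differences of about 2-fold were not excluded. The folds are those of hybridisation signals, and the match of the probe sequences to Ws was not analysed here.

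**Figure D2:**
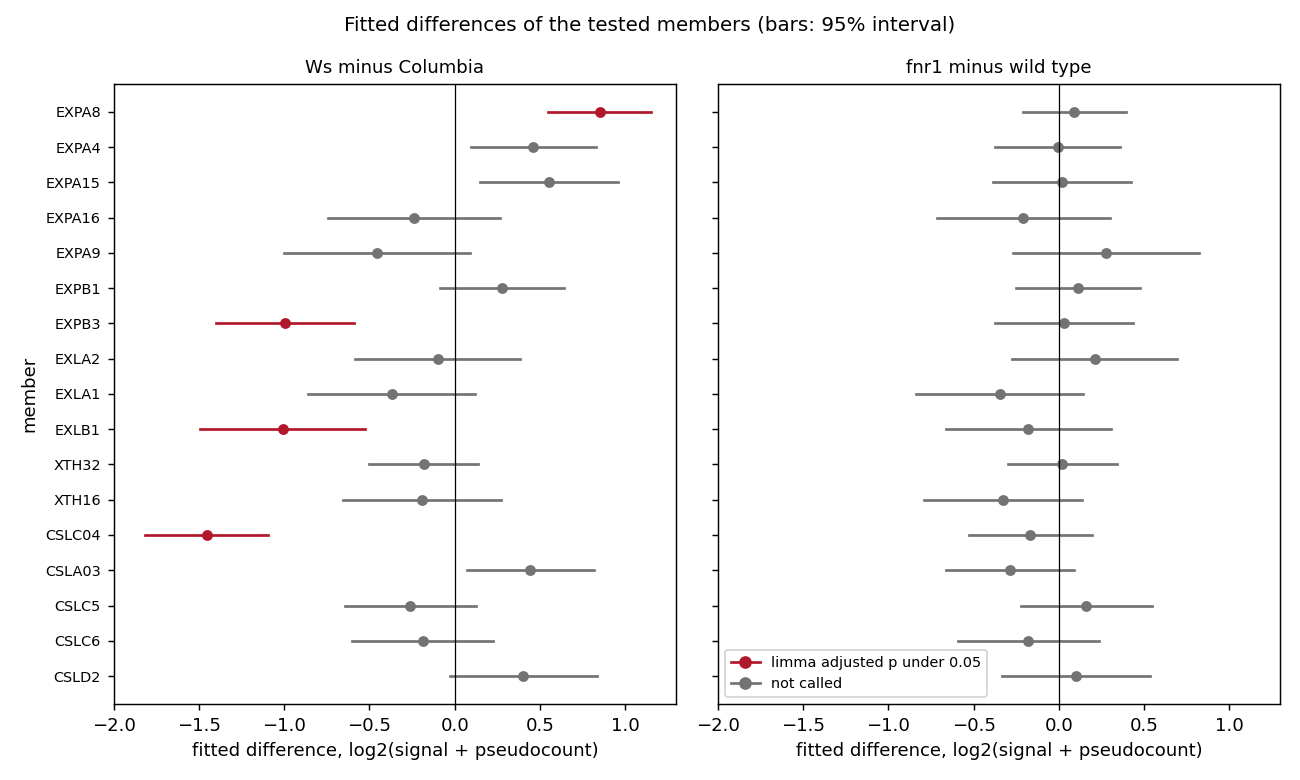
Fitted log2 difference of each of the 17 tested members (points) with its 95% interval from limma (bars), for Ws minus Columbia on the left and fnr1 minus wild type on the right. EXPA8 (0.85), EXPB3 (-0.995), EXLB1 (-1.01) and CSLC04 (-1.45) were called between the ecotypes, and the intervals of all members include 0 between the genotypes.

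The second comparison asked which members separated the fnr1 mutants from wild type with the ecotypes pooled. No change was called among the tested members of any family. Of the 17 tested members, limma called 0, and 0 had an unadjusted p under 0.05, where 6.67% of all tested probe sets did. The genotype background was low: 0.183% of all tested probe sets were called, 0.161% higher and 0.022% lower in fnr1. The adjusted p of the members ran from 0.823 to 0.999. In no tested member did fnr1 differ from wild type by 1.5-fold or more with 1 sign in Ws and Columbia alike, where 0.498% of all tested probe sets were higher and 0.227% lower by that measure.

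The fitted genotype differences ran from -0.35 for EXLA1 to 0.28 for EXPA9. EXLA1 had 20.9 in fnr1 Ws against 29.0 in wild type Ws, and 29.5 in fnr1 Columbia against 38.0 in wild type Columbia. The fnr1 signal was the lower in both ecotypes, by similar amounts (log2 differences -0.38 in Ws and -0.31 in Columbia, fitted SE 0.23, limma adjusted p = 0.833). EXPA9 had 22.1 in fnr1 Ws against 14.2 in wild type Ws, and 27.3 in fnr1 Columbia against 25.7 in wild type Columbia, so that the difference lay mostly in Ws (0.48, against 0.07 in Columbia, fitted SE 0.26, limma adjusted p = 0.897).

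EXPA8, which differed between the ecotypes, had a genotype difference of 0.09 ± 0.14 (limma adjusted p = 0.958), with 0.01 in Ws and 0.17 in Columbia. Among the beta-expansins EXPB1 had 0.11 ± 0.17 and EXPB3 had 0.03 ± 0.19. For EXPB3 the small fitted value joins differences of opposite sign, 0.34 in Ws and -0.28 in Columbia. EXLB1 had -0.18 ± 0.23 and CSLC04 had -0.17 ± 0.17, both with negative values in Ws and in Columbia. Over these 4 genes the genotype difference thus lay between -0.18 and 0.09.

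In the CSL family CSLA03 had negative values in both ecotypes, -0.37 in Ws and -0.21 in Columbia (fitted -0.29 ± 0.18, limma adjusted p = 0.823). CSLC6 had -0.18 ± 0.20, CSLC5 had 0.16 ± 0.18 and CSLD2 had 0.10 ± 0.20. EXLA2 was the only tested member with both fnr1 arrays above both wild type arrays (fitted 0.21 ± 0.23, limma adjusted p = 0.922), where 10.7% of all tested probe sets had that order. No tested member had both fnr1 arrays below both wild type arrays, where 16.3% of all tested probe sets did. The 95% intervals of the genotype differences together reached from -0.84 to 0.82, so a signal up to 1.79-fold lower in fnr1 was not excluded for EXLA1, nor a signal up to 1.77-fold higher for EXPA9.

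The genotype by ecotype difference, which is the fnr1 minus wild type difference in Ws less that in Columbia, had no replicates and was not tested. It lay between -0.26 for CSLC5 and 0.93 for XTH16. For XTH16 the fnr1 minus wild type difference was 0.13 in Ws and -0.79 in Columbia, and XTH16 in Columbia was the only case in which a tested member differed by at least 1.5-fold between genotypes within an ecotype. The background in Columbia was 4.25% of all tested probe sets with a 1.5-fold higher signal in fnr1 and 3.99% with a lower signal, and in Ws it was 2.48% and 3.22%. EXPB3 followed with 0.63 and EXPA9 with 0.41. The median absolute value was 0.16 over the members, against 0.27 over all tested probe sets, and no tested member was at least 1.5-fold apart in opposite directions in the ecotypes, where 0.359% of all tested probe sets were.

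**Figure D3:**
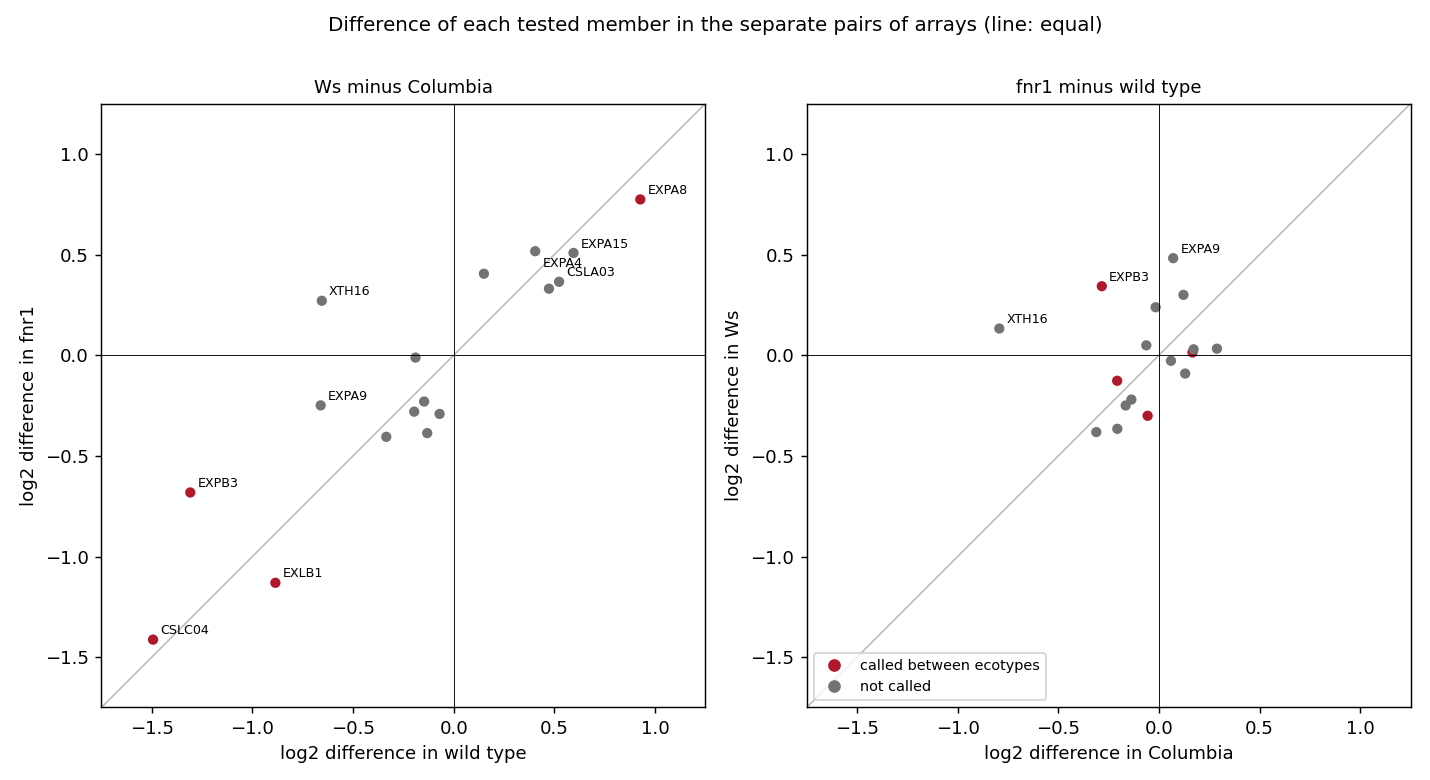
Log2 difference of each of the 17 tested members in the separate pairs of arrays, with Ws minus Columbia in fnr1 plotted against that in wild type (left) and fnr1 minus wild type in Ws against that in Columbia (right). Points called between the ecotypes are red, the grey line marks equal values, and XTH16 lies farthest from it in both panels.

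The other 17 members did not reach the mean signal needed for testing, which corresponds to a signal of about 14.0. Their signals lay between 0.34 and 18.1, with 5 members below the pseudocount of 5.78 on all arrays, 9 below it on some and 3 on none. The share tested was 50% of members, against 60% of all probe sets, the latter set by the filter. No call was made for these genes when the filter was dropped, with a lowest limma adjusted p of 0.132 between the ecotypes and 0.895 between the genotypes. Over all probe sets that fit called 368 between the ecotypes and 0 between the genotypes. Its genotype part therefore cannot set these genes apart from the rest.

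Several dim members are known mainly from roots, and their signals did not share an order between the ecotypes. XTH18, XTH19 and EXPA7 were lower on both Columbia arrays, XTH21 was lower on both Ws arrays, and EXPA18, XTH20 and XTH26 overlapped. Over all 17 dim members, 4 had both Ws arrays above both Columbia arrays and 3 had them below. Of all tested probe sets, 27.1% and 21.2% had these orders. The share over dim probe sets was not computed, so no ecotype difference is read from these orders. XTH19 had 12.4 in fnr1 Ws and 14.6 in wild type Ws, against 0.81 in fnr1 Columbia and 3.60 in wild type Columbia. No protein-coding gene lies between XTH19 and its neighbour XTH18 in the reference gene table. XTH18 had 7.20 in fnr1 Ws and 5.69 in wild type Ws, against 0.34 in fnr1 Columbia and 1.41 in wild type Columbia. EXPA7, a root hair expansin, had 7.32 in fnr1 Ws and 8.5 in wild type Ws, against 1.002 in fnr1 Columbia and 1.53 in wild type Columbia. All Columbia signals of these 3 genes lay below the pseudocount, so no fold is given, and without the filter their limma adjusted p between ecotypes was 0.132 for XTH19, 0.201 for EXPA7 and 0.238 for XTH18. XTH21 had 0.61 in fnr1 Ws and 0.98 in wild type Ws, against 1.47 in fnr1 Columbia and 4.31 in wild type Columbia. XTH20 had 2.65 in fnr1 Ws and 7.52 in wild type Ws, against 4.03 in fnr1 Columbia and 7.59 in wild type Columbia. XTH26 stayed near or below 1 on every array, with 0.63 in fnr1 Ws and 0.44 in wild type Ws, against 1.02 in fnr1 Columbia and 0.52 in wild type Columbia. EXPA18, which is also a root hair expansin, had 1.32 in fnr1 Ws and 10.53 in wild type Ws, against 6.58 in fnr1 Columbia and 2.05 in wild type Columbia. PYK10, the root marker, was lower on both Ws arrays, with 71.2 in fnr1 Ws and 93.8 in wild type Ws, against 132.5 in fnr1 Columbia and 110.7 in wild type Columbia (limma adjusted p = 0.1).

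The remaining dim members were the alpha-expansins EXPA20, EXPA21 and EXPA24, the beta-expansins EXPB2 and EXPB5, EXLA3, the XTH genes XTH29 and XTH33, and the CSL genes CSLA01 and CSLC12. EXLA3 lies next to EXLA1 in the gene table, and its signal was 3.21 in fnr1 Ws and 3.77 in wild type Ws, against 5.10 in fnr1 Columbia and 6.15 in wild type Columbia. CSLA01 was lowest in fnr1 Columbia, with 13.2 in fnr1 Ws and 14.4 in wild type Ws, against 5.62 in fnr1 Columbia and 18.1 in wild type Columbia. CSLC12, a further xyloglucan glucan synthase gene, had 4.46 in fnr1 Ws and 11.9 in wild type Ws, against 6.99 in fnr1 Columbia and 10.04 in wild type Columbia. These values overlap between the ecotypes for CSLA01 and CSLC12, while both fnr1 arrays lay below both wild type arrays. That order was seen in 5 of the 17 dim members (CSLA01, CSLC12, EXPA21, EXPB5 and XTH20) and the opposite order in 2 (XTH26 and XTH29). Over all tested probe sets 16.3% had fnr1 below and 10.7% had fnr1 above. The share over dim probe sets was not computed, so no genotype difference is read from these orders. None was called between the genotypes without the filter, but that fit called 0 of all probe sets and so shows nothing particular to these genes.

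**Figure D4:**
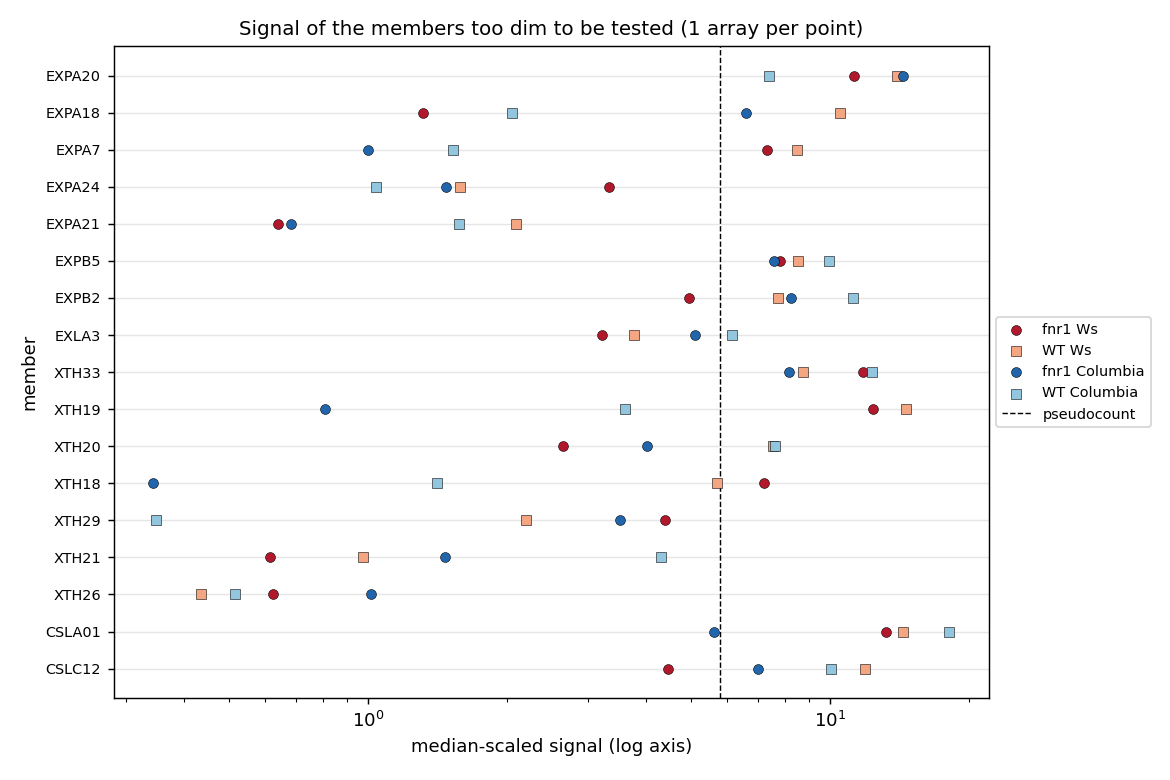
Median-scaled signal (horizontal log axis) of the 17 members too dim to be tested, with 1 point per array and the pseudocount of 5.78 as a dashed line. XTH18, XTH19 and EXPA7 have both Columbia points well left of both Ws points, and most other members show no ordering by ecotype.

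Genes that act with these families were taken from 9 lists of wall genes and 4 lists of growth regulators, chosen with earlier results of these data known. Of 407 wall genes in the lists, 61 had a single-gene probe set and 34 were tested, of which 2 fell and 0 rose in Ws. Over all tested probe sets 5.25% fell and 3.07% rose, so the count of wall genes called was near the background. PMEPCRF, a pectin methylesterase gene, had 134.9 in fnr1 Ws and 170.9 in wild type Ws, against 348 in fnr1 Columbia and 271 in wild type Columbia (log2 difference -0.99 ± 0.18, limma adjusted p = 0.00144). GH9B8, a gene of the endoglucanase family GH9, had 77.5 in fnr1 Ws and 62.6 in wild type Ws, against 123.8 in fnr1 Columbia and 99.4 in wild type Columbia (log2 difference -0.63 ± 0.18, limma adjusted p = 0.035). The median over the 34 wall genes was -0.19, against 0.04 over all tested probe sets, and 17 of the 34 were TBL genes, a family of wall polysaccharide acetyltransferases, with none called.

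Between fnr1 and wild type, limma called 0 of the 34 wall genes, with 2 at an unadjusted p under 0.05, near the 0.183% and 6.67% of all tested probe sets. COB, needed for oriented cellulose deposition, had an ecotype difference of -0.12 ± 0.15 (limma adjusted p = 0.715). The wall-sensing receptor kinases FER and THE1 had 0.22 and 0.00 between the ecotypes and were not called. Of 313 genes in the auxin, brassinosteroid, gibberellin and light lists, 21 had a probe set and 12 were tested. Limma called 0 of these 12 in either comparison, with 3 at an unadjusted p under 0.05 between the ecotypes and 1 between the genotypes, where 20.2% and 6.67% of all tested probe sets passed. The largest ecotype difference there was that of IAA29, an auxin response gene (-0.67, limma adjusted p = 0.0573).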

How the data were processed

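The deposited file holds linear intensity values, which per the submitters' processing notes the authors computed with MAS5. Its version, target level and detection calls are not given in the sources used here. Arrays were scaled to a common median, 5.78 (the 25th percentile of scaled signals) was added, and log2 was taken. The 64 control probe sets were left out. A filter kept the 13648 of 22746 other probe sets whose mean log2 signal reached the 40th percentile, and limma 3.58.1, run in R 4.3.3, tested these. The model had additive ecotype and genotype terms, a variance trend, 2-sided tests and Benjamini-Hochberg adjustment over all tested probe sets at 0.05. It leaves 1 residual degree of freedom beside 15.7 prior ones, so the number of arrays limits the precision. With 2 arrays against 2, an exact permutation test of a single gene cannot go below p = 0.333 and was not used. With 1 array for each combination, the genotypes stand in as replicates for the ecotype comparison, and the ecotypes for the genotype comparison. The residual of a gene is thus its genotype by ecotype difference, moderated by the spread of the other probe sets. Spread between replicate plants of the same combination, and its technical part, were not measured.

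Of the probe sets, 13513 were annotated to 1 gene, 503 to several, and 8730 had no listed gene. All 34 members kept their symbols in the reference gene table. Members, lists and the naming rule, under which every member could be named, were chosen with earlier results of these data known. The procedure was tested on simulated data. The alternatives were other scalings, pseudocounts, filters, variance models and covariates, and leaving out each array. Sequences were not used here.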

Additional observations from a re-analysis of the deposited data

How the results depend on the processing

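The ecotype calls of EXPA8 and CSLC04 held, with the same sign, under all 9 alternatives. They also held with each array left out, where the lone array of an ecotype is assumed to vary like the others. Over the alternatives other than left-out arrays, the difference was 0.83 to 1.04 for EXPA8, -1.52 to -1.23 for CSLC04, -1.05 to -0.82 for EXPB3 and -1.17 to -0.64 for EXLB1. The count of 1136 ecotype calls became 477 on the deposited scale, 368 with no filter and 752 with no variance trend, and was 525 to 1008 with an array left out. The 4 member calls became 2 on the deposited scale, where EXPB3 and EXLB1 were not called, 2 with no filter and 3 with the filter at the 60th percentile, where EXLB1 was not tested, and were 3 to 4 with an array left out. The 25 genotype calls became 13 with the pseudocount at the 50th percentile, 0 with no filter (1182 at an unadjusted p under 0.05), 6 with no variance trend, 0 with ecotype left out of the model (210 at an unadjusted p under 0.05), and 0 to 1 with an array left out. No member was called between genotypes in any of these fits.

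On the deposited scale, where all probe sets shift by a median of 0.21 in Ws and 0.08 in fnr1, EXLA2 (0.056) and XTH32 (0.0057) turned positive in Ws. EXPA4 turned positive in fnr1 there (0.11), with quantile normalization (0.0098) and with cyclic loess (0.015). Leaving out an array also drops the other factor from the model, so that ecotype differences enter the genotype difference. Values uncalled throughout then spanned 0. Between ecotypes this held for EXLA2 (-0.25 to 0.049) and XTH16 (-0.59 to 0.20). Between genotypes it held for CSLC04 (-0.91 to 0.58), CSLC5 (-0.033 to 0.35), CSLD2 (-0.14 to 0.34), EXLB1 (-0.74 to 0.39), EXPA15 (-0.28 to 0.31), EXPA4 (-0.27 to 0.25), EXPA8 (-0.37 to 0.55), EXPA9 (-0.054 to 0.61), EXPB1 (-0.091 to 0.31), EXPB3 (-0.62 to 0.68) and XTH32 (-0.13 to 0.17). Every member had 1 probe set, so the alternative of a second probe set was not run. The additive model already compares Ws with Columbia within each genotype and fnr1 with wild type within each ecotype, and the labels give no replicate numbers for a further block. Other causes of these shifts were not tested.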

Other observations

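A further 3 genes carry an older expansin, XTH or CSL name in the gene table but another symbol in the array annotation, and so were not members. EXGT-A3, also named XTH27, is an XTH gene. Its signal was 190.2 in fnr1 Ws and 304 in wild type Ws, against 421 in fnr1 Columbia and 546 in wild type Columbia. EXGT-A3 fell in Ws by 0.98 ± 0.15 on the log2 scale (SE, 2 arrays against 2, limma adjusted p = 0.000409), or 1.97-fold. Its fnr1 minus wild type difference was -0.66 in Ws and -0.37 in Columbia and was not called (fitted -0.52, limma adjusted p = 0.384). The unadjusted 95% interval of that difference, -0.84 to -0.19, excluded 0. This gene was looked up after the members' values were seen.

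ATCSLC08, of the CSLC branch, had 55.4 in fnr1 Ws and 40.5 in wild type Ws, against 40.03 in fnr1 Columbia and 34.9 in wild type Columbia, and was not called in either comparison (limma adjusted p = 0.468 between the ecotypes and 0.848 between the genotypes). AT4G30380, also named EXLB2, was too dim to be tested, at 2.70 in fnr1 Ws and 1.14 in wild type Ws, against 0.54 in fnr1 Columbia and 8.41 in wild type Columbia. A further 2 probe sets shared by several alpha-expansin genes, EXPA22 with EXP26 and EXPA23 with EXPA25, had signals below the pseudocount on every array.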
